A study of Homo sapiens with 10 samples.

Results

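The genes described are 10 inflammatory cytokines and chemokines: the colony-stimulating factor CSF2, the interleukin-6 family members IL6, IL11 and LIF, the CXC chemokines IL8, CXCL1, CXCL2 and CXCL3, and the CC chemokines CCL3 and CCL20. They were found by exact gene symbol among the 25593 gene entries of each file, and all 10 were listed once. Their mRNA was measured by RNA sequencing in 10 libraries. The cells were a pair of lines made from U2OS, a human bone tumour (osteosarcoma) line. A CRISPR control line carries the label p53 WT, and 3 of its libraries had control siRNA and 3 had SET siRNA. A CRISPR line with the label p53 KO gave 2 libraries with each siRNA. SET binds histones as a chaperone, inhibits the phosphatase PP2A and binds p53, a tumour suppressor and transcription factor. All libraries were transfected with an siRNA for 96 h and grown in serum-containing DMEM, so no group was left untransfected, and the sources used here do not give the siRNA sequence or number. The lines came from clone identification, so they can differ by more than the edit. The design text gives SET as the CRISPR target and yet describes a p53 knockout line, and the groups here follow the sample labels. Replicates are labelled biological with no word on how cultures were kept apart, so the p-values measure the spread between libraries, which may be technical.

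Inflammatory cytokines are secreted proteins that most resting cells make little of. Their genes are switched on mainly by the transcription factors NF-kB, AP-1 and C/EBP, and their mRNAs are short-lived because AU-rich elements in the 3′ untranslated region recruit decay proteins such as ZFP36. GM-CSF, the product of CSF2, drives the growth of myeloid cells, IL-6, IL-11 and LIF signal through the shared receptor chain IL6ST, and chemokines attract leukocytes. IL6, IL8 and the CXCL chemokines are among the best known parts of the secretory program of senescent cells.

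The promoters are shown because those of the CXCL genes are near copies of each other, although only CXCL3 of the 3 was listed above 0, and because the members differ in the motifs marked. RefSeq (GRCh38.p14) gave a promoter for 9 of the 10 genes, with IL8 listed under its current symbol CXCL8, and LIF had no entry. Each sequence covers the bases from 150 to 31 before the annotated start, 5′ to 3′ on the gene's strand. Capitals mark letters that match GGNNTTTCC, a core of the NF-kB site, on either strand, or TGANTCA, a core of the AP-1 site. The positions are chr4:73869243-73869362 (CXCL1, plus strand), chr4:74099226-74099345 (CXCL2, minus), chr4:74038720-74038839 (CXCL3, minus), chr4:73740419-73740538 (IL8, plus), chr2:227813692-227813811 (CCL20, plus), chr17:36090174-36090293 (CCL3, minus) and chr5:132073639-132073758 (CSF2, plus). The CCL3 and CSF2 sequences hold no capitals because neither string was found in them.
CXCL1: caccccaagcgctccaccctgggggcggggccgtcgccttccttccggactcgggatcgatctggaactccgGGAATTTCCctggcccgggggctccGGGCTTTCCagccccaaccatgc
CXCL2: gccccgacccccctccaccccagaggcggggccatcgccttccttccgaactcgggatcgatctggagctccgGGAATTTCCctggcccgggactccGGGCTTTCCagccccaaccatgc
CXCL3: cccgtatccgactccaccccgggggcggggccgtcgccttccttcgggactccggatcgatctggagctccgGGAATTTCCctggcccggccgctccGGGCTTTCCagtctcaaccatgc
IL8: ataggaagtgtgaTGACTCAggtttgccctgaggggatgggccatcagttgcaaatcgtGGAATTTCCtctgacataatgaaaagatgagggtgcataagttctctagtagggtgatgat
CCL20: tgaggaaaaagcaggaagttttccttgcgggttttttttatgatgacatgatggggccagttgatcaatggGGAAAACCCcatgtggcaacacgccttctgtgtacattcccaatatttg
CCL3: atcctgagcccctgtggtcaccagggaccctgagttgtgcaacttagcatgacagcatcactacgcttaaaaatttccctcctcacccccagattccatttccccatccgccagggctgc
CSF2: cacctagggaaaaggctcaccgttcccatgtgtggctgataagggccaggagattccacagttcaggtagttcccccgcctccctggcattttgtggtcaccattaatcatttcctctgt
The windows of CXCL1 and CXCL2 were 87.6% identical, those of CXCL1 and CXCL3 88.4%, and those of CXCL2 and CXCL3 86%. Each of these 3 promoters held a pair of GGNNTTTCC matches, the nearer one 53 bases before the start. IL8 held 1 such match 91 bases before the start and 1 TGANTCA match 137 bases before it, and the CCL20 match lay 79 bases before the start on the opposite strand. Within 250 bases upstream, 6 of 9 members held GGNNTTTCC against 5.48% of 35116 promoters in the same table. CXCL1, CXCL2 and CXCL3 are 3 of these 6 and, as near copies, are not separate instances. TGANTCA was found in 2 of 9 (IL8 and IL11) against 6.57%, and TTGCNNAA, a core of the C/EBP site, in 3 of 9 (IL6, CXCL2 and CCL3) against 9.05%. None of these 3 letter strings was in the 250 bases upstream of CSF2. A match describes letters only and is not a measured binding site.

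AU-rich stretches are shown because all members carry ATTTA, the pentamer at the core of these elements. Of the 6 stretches printed, those of CSF2 and CXCL2 also hold the longer core TTATTTATT, which ZFP36 binds. Each line gives the 30 bases of the annotated 3′ untranslated region (GRCh38, GENCODE 29) with the densest run of ATTTA, in capitals. The positions are chr5:132076072-132076101 (CSF2, plus strand), chr4:73743108-73743137 (IL8, plus), chr4:74037090-74037119 (CXCL3, minus), chr4:74097590-74097619 (CXCL2, minus), chr17:36088492-36088521 (CCL3, minus) and chr2:227817270-227817299 (CCL20, plus).
CSF2: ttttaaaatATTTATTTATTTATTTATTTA
IL8: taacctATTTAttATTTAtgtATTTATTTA
CXCL3: ttacgagggttctacttATTTAtgtATTTA
CXCL2: aagtcttctATTTATTTATTTATTTATTTA
CCL3: acttaaattttaATTTATTTAtactATTTA
CCL20: ttaaagttaaactgtattttatgttATTTA
All 10 members held at least 1 ATTTA, as did 67% of 19046 genes with a 3′ untranslated region. Over the whole 3′ untranslated region TTATTTATT was found in 7 of 10 members (not in IL6, CCL3 or CCL20) and in 8.16% of those genes. CSF2 carried 8 ATTTA copies in 318 bases, or 25.2 per kb, against a median of 1.47 per kb over all genes. IL8 carried 9 copies, IL11 9, CXCL2 10, LIF and CXCL3 7 each, IL6 6, CXCL1 5, CCL3 4 and CCL20 3.

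All values are FPKM (fragments per kilobase of transcript, scaled to the mapped fragments of the library), a level corrected for transcript length, as deposited. The depth of the libraries is unknown because no counts were used, so the interval that the authors' files give for each FPKM stands for precision. Over genes at FPKM 1 or more, the median half-width of that interval was 7.43 to 9.20% of the value, depending on the library. Replicate libraries of a group correlated at r = 0.976 to 0.982 across the tested entries, and none were identical. SET fell from 124 ± 2.64 (SD, n = 3) to 12.5 ± 0.656 (n = 3) in WT-labelled cells and from 164 ± 8.22 (n = 2) to 14.9 ± 0.0302 (n = 2) in KO-labelled cells. CDKN1A, a direct p53 target that encodes the cell-cycle inhibitor p21, was at 162 ± 8.42 in WT-labelled and 6.67 ± 0.231 in KO-labelled cells under control siRNA. FPKM do not show whether a gene was edited.

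Markers of bone and mesenchymal cells were present in every library (SPARC, COL1A1, VIM, RUNX2, ALPL and SPP1), while IBSP was listed at 0 and SP7, COL1A2 and BGLAP stayed below FPKM 1. The summed level of these 10 markers moved with SET siRNA, from 1955 to 2005 down to 1245 to 1369 in WT-labelled libraries and from 1981 to 2097 down to 1482 to 1620 in KO-labelled libraries. VIM, SPARC and COL1A1 made up most of this sum, so it hides differences in lower markers. Under control siRNA, SPP1 had means of 79.8 in WT-labelled and 16.2 in KO-labelled cells, and RUNX2 of 7.44 and 12.9. Of 11 leukocyte markers, 10 were below FPKM 1 in every library, and PTPRC, the pan-leukocyte marker CD45, had group means of 0.0787 to 0.163. CD68 made up most of the leukocyte sum, which was 9.68 to 10.9 and 9.20 to 11.6 in WT-labelled cells with control and SET siRNA and 4.22 to 4.43 and 4.38 to 5.98 in KO-labelled cells. The summed level of 6 endothelial and epithelial markers, of which 4 were below FPKM 1 everywhere, was 2.94 to 3.37 and 4.93 to 6.85 in WT-labelled cells and 2.63 to 2.92 and 4.87 to 5.35 in KO-labelled cells. Most of that rise was EPCAM, with means of 1.79 and 4.01 in WT-labelled and 1.72 and 4.12 in KO-labelled cells. The part of these marker differences in the cytokine values was not tested. In bulk RNA, fewer cells making a transcript and less of it per cell cannot be told apart.

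Among the members, LIF was the most abundant in all 4 groups and CXCL1 and CXCL2 were listed at 0 in all 10 libraries. The summed FPKM of the members was 44.0 ± 0.850 in WT-labelled control libraries and 84.5 ± 3.88 in those with SET siRNA (SD, n = 3 each). In KO-labelled cells it was 21.9 ± 0.568 and 35.0 ± 2.98 (SD, n = 2 each). LIF made up 60.5 to 67.4% of the sum in WT-labelled control libraries and 44.3 to 47.5% with SET siRNA. In KO-labelled libraries its share was 57.7 to 65.3% and 40.7 to 45.1%. In both lines the sum was higher and the LIF share lower in every SET siRNA library than in every control library.

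The order of levels differed between the groups. In WT-labelled control libraries LIF (mean FPKM 27.8) was followed by IL8 (4.20), IL11 (4.01), CSF2 (3.12), CCL20 (2.81), CCL3 (1.23), CXCL3 (0.575) and IL6 (0.251). The ranges of IL8 and IL11 overlapped there, as did those of CSF2 and CCL20. With SET siRNA the WT-labelled order was LIF (38.4), CSF2 (15.7), CCL20 (9.10), CCL3 (7.37), IL8 (7.12), IL11 (4.47), CXCL3 (1.93) and IL6 (0.333), and the ranges of CCL20, CCL3 and IL8 overlapped. KO-labelled control libraries had LIF at 13.4, IL8 at 2.69, CCL20 at 2.42, IL11 at 2.29, CCL3 at 0.390, CXCL3 at 0.361, IL6 at 0.205 and CSF2 at 0.0996, with overlap between IL8 and CCL20, CCL20 and IL11, CCL3 and CXCL3, and IL6 and CSF2. KO-labelled libraries with SET siRNA had LIF at 15.0, IL8 at 7.33, CCL20 at 6.03, CXCL3 at 2.83, IL11 at 1.92, CSF2 at 1.52, CCL3 at 0.284 and IL6 at 0.118, with overlap between IL8 and CCL20 and between CCL3 and IL6. CSF2 thus stood next to LIF in one group and last of the detected members in another.

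**Figure D1:**
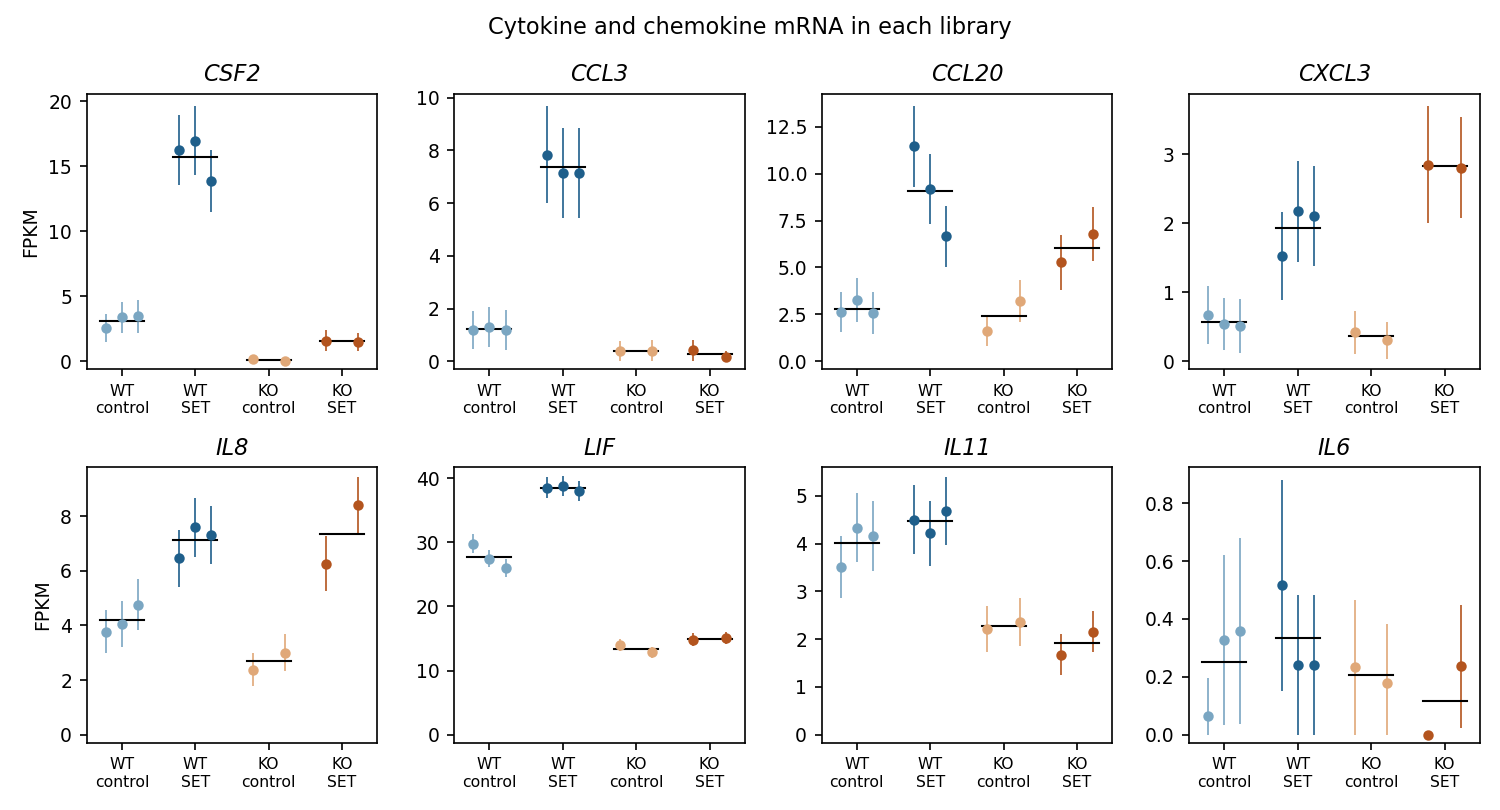
FPKM of the 8 detected members (y axis, linear, a scale per panel) in each library, grouped on the x axis by line label and siRNA. Points are libraries, thin lines the interval the authors' files give, and black bars group means (n = 3, 3, 2 and 2). CSF2 and CCL3 stand highest in the WT-labelled SET siRNA libraries (means 15.7 and 7.37), while CXCL3 stands highest in the KO-labelled ones (2.83).

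SET siRNA was compared with control siRNA within each line, which asks what lowering SET mRNA does to these genes. In WT-labelled cells CSF2, CCL3, CCL20, CXCL3, IL8 and LIF rose and IL11 did not pass the test. In KO-labelled cells CXCL3, CSF2, IL8 and CCL20 rose, while LIF, IL11 and CCL3 did not pass. The 2 genes with the largest difference in WT-labelled cells were CSF2 (2.02 ± 0.11, SE, in log2(FPKM + 1)) and CCL3 (1.91 ± 0.08), and the largest in KO-labelled cells was CXCL3 (1.49 ± 0.12), ahead of CSF2 (1.20 ± 0.14). That last order turned with a pseudocount of 0.1, where CSF2 differed by 3.22 and CXCL3 by 2.68. Adding 1 before the logarithm makes these differences smaller than the log2 ratio of FPKM for low genes.

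Only 7 of the 10 members entered the test, which needed 2 or more libraries at FPKM 1 or above, and IL6, CXCL1 and CXCL2 did not. CXCL3 reached FPKM 1 only in SET siRNA libraries and CCL3 only in WT-labelled libraries, so both passed the filter through groups where they were high, and the counts of called members describe the list without supporting it. At a limma adjusted p below 0.05, 6 members were higher with SET siRNA in WT-labelled cells, where 30.8% of all 14813 tested entries were called higher, and no member was lower, against 24.0% (54.8% in either direction). In KO-labelled cells 4 members were higher, against 19.8% of all entries, and no member was lower, against 17.9% (37.6% in either direction). The median difference of the 7 tested members was 0.89 in WT-labelled and 1.07 in KO-labelled cells on the log2(FPKM + 1) scale, and the median of all tested entries was 0.04 and 0.02.

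**Figure D2:**
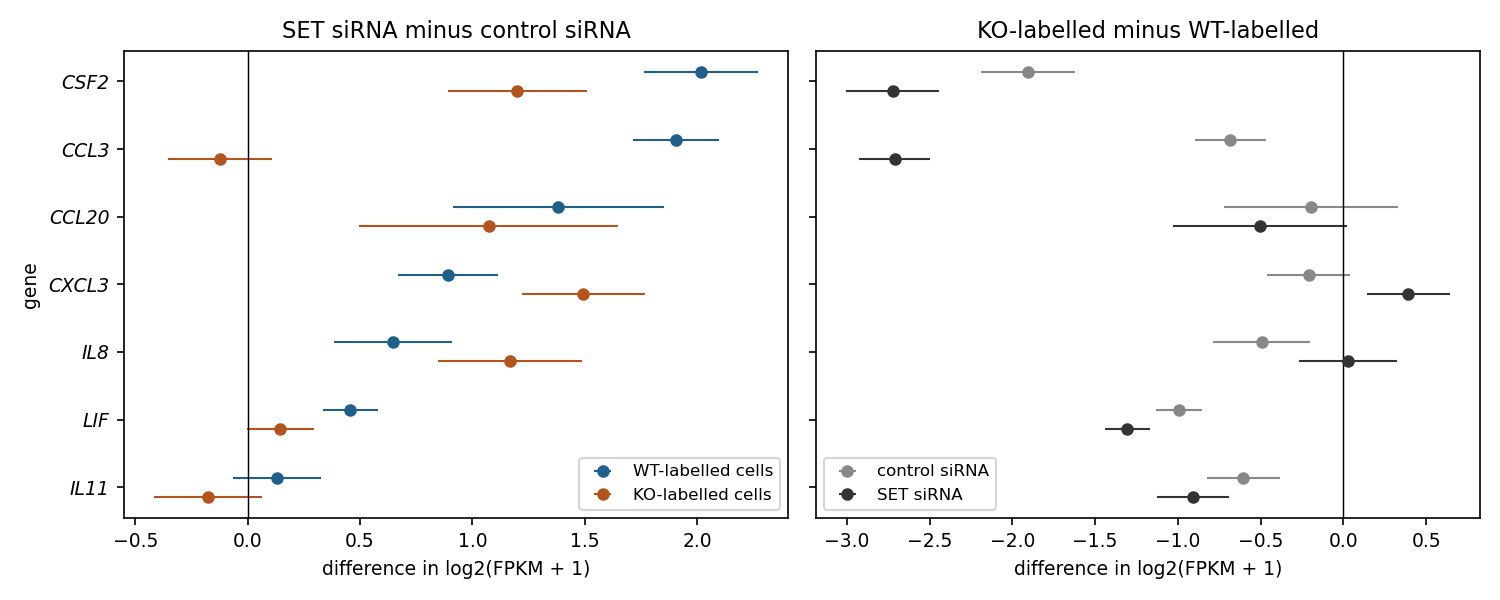
Differences in log2(FPKM + 1) for the 7 tested members (x axis, with limma's 95% intervals): SET siRNA minus control siRNA on the left and KO-labelled minus WT-labelled on the right. CCL3 lies at 1.91 in WT-labelled and -0.12 in KO-labelled cells on the left, and LIF, IL11, CSF2 and CCL3 have intervals wholly below 0 under both siRNAs on the right.

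CSF2 (chr5:131409485-131411859 as the files give it, with no build named in the sources) encodes GM-CSF. Its FPKM in replicates 1, 2 and 3 was 2.57, 3.37 and 3.44 in WT-labelled control libraries and 16.2, 17.0 and 13.9 in those with SET siRNA. All 3 SET siRNA libraries lay above all 3 control libraries. The mean rose 5.02-fold, and the limma difference was 2.02 ± 0.11 (SE), adjusted p = 1.47e-06. In KO-labelled cells it was 0.199 and listed at 0 with control siRNA, and 1.58 and 1.45 with SET siRNA. The groups did not overlap, the difference was 1.20 ± 0.14 with limma adjusted p = 0.000227, and no fold is given because 1 control library was at 0. The authors' intervals for CSF2 had a median half-width of 37.8% of FPKM, and up to 121% in the lowest library above 0.

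LIF (chr22:30636442-30642796), a cytokine that keeps stem cells undifferentiated and acts on bone and muscle, was the best measured member, with interval half-widths of 4.04 to 6.94% of FPKM. Control siRNA libraries of WT-labelled cells had 29.8, 27.5 and 26.0, and SET siRNA libraries had 38.6, 38.8 and 38.0. The groups did not overlap and the mean rose 1.38-fold (0.46 ± 0.05, limma adjusted p = 0.000115). KO-labelled libraries had 14.0 and 12.8 with control siRNA and 14.8 and 15.1 with SET siRNA. Both SET siRNA values lay above both control values, the ratio of means was 1.11, and the difference of 0.15 (95% interval -0.0044 to 0.30) did not pass the test, with limma adjusted p = 0.114.

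IL11 (chr19:55875757-55881814), a cytokine linked to fibrosis and bone turnover, was measured at 3.52, 4.34 and 4.17 with control siRNA and 4.50, 4.22 and 4.68 with SET siRNA in WT-labelled cells. These ranges overlapped, and the difference of 0.13 (95% interval -0.066 to 0.33) had a limma adjusted p of 0.231. In KO-labelled cells IL11 was at 2.22 and 2.36 with control siRNA and 1.68 and 2.16 with SET siRNA, a difference of -0.18 (95% interval -0.42 to 0.064, limma adjusted p = 0.223). IL6 (chr7:22766766-22771621), the family's founding member, was never above 0.516 and was listed at 0 in 1 library. Its values were 0.0652, 0.328 and 0.359 in WT-labelled control libraries, 0.516, 0.242 and 0.242 with SET siRNA, 0.233 and 0.177 in KO-labelled control libraries, and 0 and 0.236 with SET siRNA. The authors' intervals for IL6 had a median half-width of 100% of FPKM, and a difference between groups was not detectable at this precision. Fitted without the filter, IL6 differed by 0.09 in WT-labelled and -0.12 in KO-labelled cells (limma adjusted p = 0.602 and 0.661).

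IL8 (chr4:74606223-74609433), the main attractant of neutrophils, had FPKM of 3.78, 4.05 and 4.77 in WT-labelled control libraries and 6.46, 7.59 and 7.31 with SET siRNA. The groups did not overlap and the mean rose 1.70-fold (0.65 ± 0.12, limma adjusted p = 0.00133). In KO-labelled cells the values were 2.39 and 3.00 with control siRNA and 6.26 and 8.40 with SET siRNA. The mean rose 2.72-fold there (1.17 ± 0.14, limma adjusted p = 0.00033), with both SET siRNA libraries above both controls.

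CXCL3 (chr4:74902306-74904490) acts on the same neutrophil receptor CXCR2 as IL8, CXCL1 and CXCL2. WT-labelled control libraries had 0.669, 0.538 and 0.516, and SET siRNA libraries had 1.52, 2.17 and 2.11. The groups did not overlap, and the mean rose 3.37-fold (0.89 ± 0.10, limma adjusted p = 7.83e-05). KO-labelled libraries had 0.418 and 0.303 with control siRNA and 2.85 and 2.81 with SET siRNA, again without overlap. That rise was 7.84-fold (1.49 ± 0.12, limma adjusted p = 3.89e-05), on control values whose intervals were wide. The half-width for CXCL3 was 26.3 to 89.4% of FPKM.

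CXCL1 (chr4:74735109-74736959) and CXCL2 (chr4:74962752-74964997) were listed at 0 with a status of OK in all 10 libraries, including those with the highest CXCL3. Of the 50-base windows of the CXCL1 transcript, 5.73% occurred unchanged in CXCL2 or CXCL3 (GENCODE 29). The same share was 9.24% for CXCL2 and 5.26% for CXCL3, each against the other 2. Only exact matches were counted, and by this measure CCL3 shared 9.88% with its near-identical copy CCL3L1. IL8 shared 0 of 1656 windows with them. The sources do not say how the authors' pipeline placed reads from the shared stretches, so the split of those reads among the 3 genes is uncertain. Why CXCL1 and CXCL2 were listed at 0 was not tested.

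The IL8 to CXCL2 region spans 358.775 kb of chromosome 4 and held 10 entries, of which IL8 and CXCL3 passed the filter. PF4V1, PF4 and PPBPL2 were listed at 0 in every library, as were CXCL1 and CXCL2, and CXCL6, PPBP and CXCL5 did not exceed 0.0482, 0.0582 and 0.265. Outside it, within 250 kb of a member, RASSF6 and EPGN reached at most 0.218 and 0.278. MTHFD2L, a mitochondrial folate enzyme beside CXCL2, rose in WT-labelled cells with SET siRNA (2.10 to 3.14, log2 difference 0.42, limma adjusted p = 0.00736) and did not pass in KO-labelled cells (3.02 to 3.63, adjusted p = 0.241 by limma).

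CCL3 (chr17:34415602-34417506) encodes MIP-1alpha, an attractant of monocytes and T cells. In WT-labelled cells it was 1.19, 1.31 and 1.20 with control siRNA and 7.84, 7.14 and 7.14 with SET siRNA. The mean rose 5.98-fold, with no overlap (1.91 ± 0.08, limma adjusted p = 5.2e-07). KO-labelled libraries had 0.388 and 0.393 with control siRNA and 0.411 and 0.157 with SET siRNA. The 2 groups overlapped, the difference was -0.12 (95% interval -0.35 to 0.11, limma adjusted p = 0.381), and without KO-labelled SET siRNA replicate 2 it was 0.02. All 4 KO-labelled values were below every WT-labelled value.

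CCL3 has near-identical copies, CCL3L1 and CCL3L3, among which reads can be split, and 9.88% of its 50-base windows occurred in CCL3L1. The summed FPKM of the 3 entries was 2.36 ± 0.277 and 9.71 ± 0.261 in WT-labelled cells with control and SET siRNA (SD, n = 3 each), a 4.12-fold ratio. In KO-labelled cells the sum was 1.17 ± 0.0800 and 1.32 ± 0.837 (SD, n = 2 each), a ratio of 1.13. CCL3 itself made up 71.7 to 80.5% of the sum in WT-labelled SET siRNA libraries and 21.5 to 21.6% in KO-labelled ones. The KO-labelled ratio of sums was 0.622 without SET siRNA replicate 1 and 1.64 without replicate 2. CCL3L3 reached FPKM 1 only in the 3 WT-labelled SET siRNA libraries and so entered the test through the group where it was high; its difference in WT-labelled cells was 0.60 ± 0.15 (limma adjusted p = 0.00811), which is given as a description.

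Around CCL3 the other chemokine genes were low: CCL4, the neighbour 15.618 kb away, did not exceed 0.415, CCL5 0.251, CCL18 0.113 and CCL15 0.0723. CCL16, CCL14 and CCL23 were listed at 0 in every library, and CCL4L1, CCL4L2, LYZL6, C17orf66 and the joined entry CCL14-CCL15 stayed below 0.1. RDM1 and TBC1D3B did not pass in any comparison, and TBC1D3C differed by 0.20 in WT-labelled cells (limma adjusted p = 0.0389). Of the neighbours of CSF2, IL3, the gene next to it and like it a myeloid growth factor, did not exceed 0.0891, ACSL6 did not exceed 0.179, and LOC728637 was at 0. P4HA2 and PDLIM4, 118.818 and 183.866 kb away, did not pass for SET siRNA in either line. SLC22A4 and LOC553103 fell in WT-labelled cells (-0.31 and -0.38, limma adjusted p = 0.0485 and 0.0219). LOC553103 reached FPKM 1 only in WT-labelled control replicates 1 and 2 (1.16 and 1.01). It thus entered the test through the group where it was high, and its fall is given as a description. P4HA2, PDLIM4 and SLC22A4 were, like CSF2, lower in KO-labelled cells under control siRNA (-0.55, -0.74 and -0.54, limma adjusted p = 0.000133, 0.000358 and 0.00913).

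CCL20 (chr2:228678558-228682280) attracts cells that carry CCR6. WT-labelled control libraries had 2.62, 3.25 and 2.56, and SET siRNA libraries had 11.5, 9.18 and 6.66. The groups did not overlap, although the SET siRNA libraries differed widely among themselves, and the mean rose 3.24-fold (1.38 ± 0.21, limma adjusted p = 0.000463). KO-labelled libraries had 1.62 and 3.21 with control siRNA and 5.27 and 6.79 with SET siRNA, a 2.50-fold rise without overlap (1.07 ± 0.26, limma adjusted p = 0.00999). That call was lost without KO-labelled control replicate 1 (adjusted p = 0.0543 by limma) and without SET siRNA replicate 2 (0.0672).

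The interaction asks whether the SET siRNA effect differed between the lines, and is the effect in WT-labelled minus that in KO-labelled cells. CCL3 responded more in WT-labelled cells, by 2.03 ± 0.13 (SE) with limma adjusted p = 8.92e-05. CSF2 differed by 0.82 ± 0.18 (adjusted p = 0.0148 by limma) and LIF by 0.31 ± 0.09 (0.0356), both with the larger effect in WT-labelled cells on the log2(FPKM + 1) scale. CXCL3 differed the other way, by -0.60 ± 0.16 (limma adjusted p = 0.0287). Thus 3 tested members were called with a larger effect in WT-labelled cells, where 10.5% of all entries were, and 1 with a smaller one, where 8.60% were (19.1% in either direction). CCL3 and CXCL3 passed the filter through groups where they were high, so these counts describe the list without supporting it. Without KO-labelled SET siRNA replicate 2, only CCL3 was called among the members.

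Of these calls, CCL3 was kept under every alternative run, at 1.89 to 3.17. It entered the test only through the WT-labelled libraries, where it was high. Its KO-labelled values of 0.157 to 0.411 had intervals down to about 0, so the call is given as a description. CSF2 turned direction with the pseudocount: the interaction was -0.93 with a pseudocount of 0.1 (limma adjusted p = 0.229) and -2.73 with 0.01 (adjusted p = 0.173), since the KO-labelled control libraries were at 0.199 and 0. Its call was also lost without KO-labelled SET siRNA replicate 2 (adjusted p = 0.0547 by limma). LIF kept its direction and size (0.25 to 0.37) but lost the call without 8 of the 10 libraries taken out 1 at a time, and CXCL3 lost it without WT-labelled control replicate 1, KO-labelled control replicate 2 or either KO-labelled SET siRNA library (limma adjusted p = 0.0621 to 0.0972) and with array weights (0.0533).

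IL8, with folds of 1.70 and 2.72, had an interaction of -0.52 ± 0.18 that did not pass (limma adjusted p = 0.0763), and it did without KO-labelled SET siRNA replicate 1 (adjusted p = 0.0493). CCL20 (0.31, 95% interval -0.43 to 1.05) and IL11 (0.31, 95% interval -0.0039 to 0.62) did not pass either (limma adjusted p = 0.525 and 0.142). Their intervals include both no difference and differences as large as that of LIF.

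**Figure D3:**
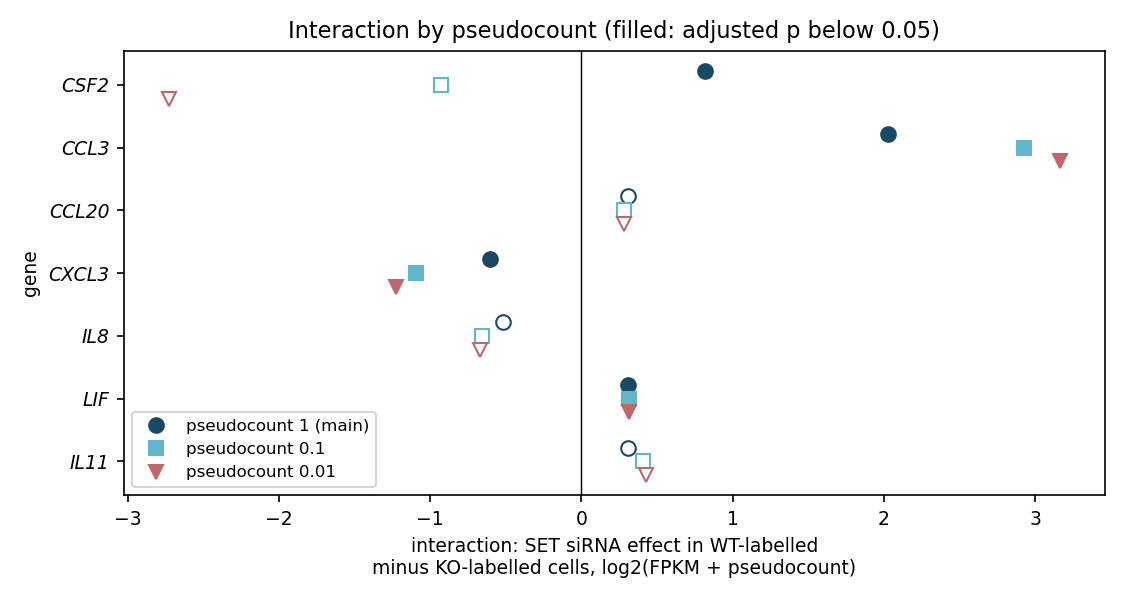
The interaction of the 7 tested members (x axis, log2 scale) with pseudocounts of 1, 0.1 and 0.01, filled where limma's adjusted p was below 0.05. CSF2 moves from 0.82 to -0.93 and -2.73 and is filled only at a pseudocount of 1, while CCL3, LIF and CXCL3 keep their side of 0 and stay filled.

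The lines were also compared directly. Under control siRNA, CSF2, LIF, CCL3, IL11 and IL8 were lower in KO-labelled than in WT-labelled cells, and CXCL3 and CCL20 did not pass. The largest difference was that of CSF2, at 2.57 to 3.44 in the WT-labelled and 0.199 and 0 in the KO-labelled libraries (-1.91 ± 0.13, limma adjusted p = 5.65e-06). LIF was 2.07-fold higher in WT-labelled cells (difference -0.99 ± 0.06, limma adjusted p = 3.87e-06), CCL3 3.16-fold (-0.68 ± 0.09, 0.000436) and IL11 1.75-fold (-0.60 ± 0.10, 0.00102), and none of these ranges overlapped. These 5 lower members compare with 22.2% of all entries called lower, and 0 members were higher, against 25.7% (47.9% in either direction). CCL3 entered the test through the WT-labelled libraries, where it was high, so this count describes the list without supporting it.

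IL8 was 1.56-fold higher in WT-labelled control libraries (difference -0.49 ± 0.13, limma adjusted p = 0.0124), and lost its call without KO-labelled control replicate 1 (adjusted p = 0.0809) and with array weights (0.0619). CXCL3 (-0.21, 95% interval -0.46 to 0.040) was not called at a pseudocount of 1 (limma adjusted p = 0.145) and was at 0.1 (adjusted p = 0.0499) and 0.01 (0.0391). CCL20 overlapped between the lines (limma adjusted p = 0.519). The tested members' median was -0.60, and that of all entries 0.02.

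Under SET siRNA, LIF, IL11, CSF2 and CCL3 were lower in KO-labelled cells and CXCL3 was higher. CCL3 was 26.0-fold higher in WT-labelled cells (difference -2.71 ± 0.09, limma adjusted p = 6.61e-08), CSF2 10.3-fold (-2.72 ± 0.13, 3.77e-07), LIF 2.57-fold (-1.31 ± 0.06, 4.07e-07) and IL11 2.33-fold (-0.91 ± 0.10, 6.42e-05). The CCL3 ratio divides by KO-labelled values of 0.411 and 0.157, whose intervals both reach 0, and it was 47.0 without KO-labelled SET siRNA replicate 1 and 18.0 without replicate 2. With its copies summed, the CCL3 ratio was 7.38 under SET siRNA (13.4 and 5.09 without those replicates) and 2.02 under control siRNA. IL8 overlapped between the lines, at 6.46 to 7.59 in WT-labelled and 6.26 to 8.40 in KO-labelled libraries (0.03, 95% interval -0.27 to 0.32, limma adjusted p = 0.881). The 4 lower members compare with 24.8% of all entries and the 1 higher member with 23.6% (48.4% in either direction). Since CCL3 and CXCL3 passed the filter through groups where they were high, these counts too describe the list without supporting it.

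CXCL3 was 1.46-fold higher in KO-labelled cells under SET siRNA (0.39 ± 0.11, limma adjusted p = 0.0166), with no overlap between 1.52 to 2.17 and 2.81 to 2.85. The call was lost at a pseudocount of 0.1 (adjusted p = 0.0542 by limma) and without either KO-labelled SET siRNA library (0.0823 and 0.0740). CCL20 overlapped between the lines (difference -0.50, limma adjusted p = 0.103) and was called under 3 of the alternatives: without WT-labelled SET siRNA replicate 3 (adjusted p = 0.0335), with array weights (0.0325) and with the replicate block (0.0396). The comparisons within a line and between lines share libraries, so their values for a member are set side by side and are not independent.

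Receptors of the IL-6 family were measured in these cells, and the listed chemokine receptors were too low to test. Of 16 receptors and signal transducers 10 were tested, and those that did not pass the filter included CSF2RB, CXCR1, CXCR2, CCR1 and CCR6. With SET siRNA 5 of the 10 rose and 2 fell in WT-labelled cells, where 30.8% of all entries were called higher and 24.0% lower. In KO-labelled cells 2 rose and 3 fell, against 19.8% and 17.9%, so the count that rose there is at the share of all entries. The counts of every list described from here on are to be read against the same shares, and those between lines under control siRNA against 25.7% of all entries called higher and 22.2% lower in KO-labelled cells. IL6R, the IL-6-specific chain, rose from 2.78 ± 0.0740 to 5.28 ± 0.198 in WT-labelled cells (0.73 ± 0.06, limma adjusted p = 8.79e-06) and from 1.85 ± 0.108 to 2.75 ± 0.0811 in KO-labelled cells (0.40 ± 0.07, 0.00212). In WT-labelled cells STAT3, the transcription factor that these receptors activate, rose from 24.3 to 33.8 and SOCS3, its feedback inhibitor, fell from 13.7 to 7.16 (0.46 and -0.85, limma adjusted p = 8.82e-06 and 2.8e-05). Neither passed in KO-labelled cells (-0.04 and -0.05, limma adjusted p = 0.552 and 0.707). The receptor chain IL11RA fell in both lines (-0.36 and -0.31, limma adjusted p = 0.00675 and 0.0470). LIFR, the LIF receptor chain, fell in KO-labelled cells and did not pass in WT-labelled cells (-0.34 and -0.08, limma adjusted p = 0.00318 and 0.213), and its interaction did not pass (adjusted p = 0.0563 by limma).

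NF-kB subunits and feedback genes were all measured. With SET siRNA 8 of 17 rose and 2 fell in WT-labelled cells, against 30.8% and 24.0% of all entries. In KO-labelled cells 10 rose and 0 fell, against 19.8% and 17.9%, and the list's medians were 0.13 and 0.28. NFKBIZ, an inducible nuclear cofactor needed for part of the NF-kB cytokine genes, rose from 5.48 ± 0.238 to 13.5 ± 0.939 in WT-labelled and from 3.72 ± 0.468 to 7.40 ± 0.866 in KO-labelled cells (1.16 ± 0.08 and 0.83 ± 0.10, limma adjusted p = 4.73e-06 and 0.000274). TNFAIP3, which shuts NF-kB signalling off, rose from 4.85 to 6.38 in WT-labelled and from 2.95 to 5.31 in KO-labelled cells (0.34 ± 0.07 and 0.68 ± 0.09, limma adjusted p = 0.00401 and 0.000553), and the inhibitor NFKBIB rose in both lines (0.43 and 0.74, limma adjusted p = 0.00173 and 0.000538). TNFAIP2, a gene induced by TNF, rose from 8.91 to 12.4 and from 5.70 to 7.65 (0.44 and 0.37, limma adjusted p = 0.000167 and 0.00278). Under control siRNA 14 of the 17 were lower and 1 higher in KO-labelled cells, with a median of -0.44, among them BIRC3 (10.4 to 2.87, -1.56), NFKBIE (-0.76) and RELB (-0.67), with limma adjusted p = 1.54e-06, 0.000407 and 0.000199.

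Of 10 tested AP-1, ATF3 and C/EBP factors, 5 rose and 0 fell in WT-labelled cells with SET siRNA, against 30.8% and 24.0% of all entries. In KO-labelled cells 6 rose and 1 fell, against 19.8% and 17.9%. ATF3, a stress-induced factor of this family, rose from 9.30 ± 0.727 to 52.0 ± 1.24 and from 7.41 ± 0.0172 to 21.1 ± 1.43 (2.37 ± 0.06 and 1.40 ± 0.07, limma adjusted p = 4.73e-08 and 4.51e-06). FOSL1, an AP-1 subunit, rose in both lines (0.63 and 1.00, limma adjusted p = 7.6e-05 and 4.86e-05), as did FOS (0.40 and 0.50, limma adjusted p = 0.00737 and 0.0108). Between the lines under control siRNA, 5 of the 10 were lower in KO-labelled cells and 1 higher, against 22.2% and 25.7% of all entries. FOSL1 (-1.15) and JUNB (-0.53) were lower and FOS (0.41) was higher there, with limma adjusted p = 7e-06, 0.000436 and 0.0139.

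The decay factors that act on AU-rich and stem-loop elements were all measured, and 4 of 10 rose and 1 fell in WT-labelled cells with SET siRNA, against 30.8% and 24.0% of all entries. In KO-labelled cells 3 rose and 1 fell, against 19.8% and 17.9%, so the counts that rose lie near the shares of all entries. ZFP36, which binds the TTATTTATT core named above, rose from 3.31 ± 0.283 to 7.01 ± 0.788 and from 3.38 ± 0.0879 to 6.43 ± 0.0807 (0.89 and 0.76, limma adjusted p = 2.19e-05 and 0.000438). ZC3H12A, the RNase Regnase-1 that degrades cytokine mRNA, rose from 7.60 to 13.5 and from 3.46 to 7.20 (0.76 and 0.88, limma adjusted p = 2.16e-05 and 7.82e-05). RC3H1 differed by 0.26 in WT-labelled and -0.01 in KO-labelled cells (limma adjusted p = 0.00397 and 0.943), and KHSRP by -0.07 and 0.39 (adjusted p = 0.176 and 0.00055). Under control siRNA 2 were higher and 2 lower in KO-labelled cells, TIAL1 by 0.50 and ZC3H12A and ZFP36L1 by -0.95 and -0.44 (limma adjusted p = 0.000188, 1.92e-05 and 0.000138).

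Of 21 other cytokines 10 were tested. With SET siRNA 4 rose and 2 fell in WT-labelled cells, near the shares of 30.8% and 24.0% of all entries. In KO-labelled cells 5 rose and 0 fell, against 19.8% and 17.9%. CSF1, the macrophage growth factor, rose from 9.31 ± 0.705 to 22.6 ± 1.21 and from 4.72 ± 0.206 to 6.47 ± 0.806 (1.19 and 0.38, limma adjusted p = 2.94e-06 and 0.0108). IL1A, an upstream inducer of IL6 and IL8, rose from 1.13 to 3.03 and from 0.189 to 0.626 (0.92 and 0.45, limma adjusted p = 1.7e-05 and 0.00607), and IL12A differed by 0.71 and 0.52 (limma adjusted p = 0.000174 and 0.00637). IL12A reached FPKM 1 only in SET siRNA libraries and was 0.362 to 0.624 in the control libraries, so it entered the test through the groups where it was high. The genes that fell in WT-labelled cells were IL15 and CTF1 (-0.53 and -0.48, limma adjusted p = 0.00131 and 0.00733). IL15 reached FPKM 1 only in WT-labelled control libraries, so it too passed the filter through the group where it was high. Under control siRNA 7 of the 10 were lower and 1 higher in KO-labelled cells. IL32 was at 57.8 in WT-labelled and 19.4 in KO-labelled cells (-1.53, limma adjusted p = 1.76e-06). CSF1 differed by -0.85 and IL1A by -0.84 (limma adjusted p = 6.51e-05 and 9.08e-05). Of the lower genes, IL1A, IL23A and IL15 reached FPKM 1 only in WT-labelled libraries. They entered the test through the line where they were high, so this count describes the list without supporting it.

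Most other chemokines were too low to test (8 of 32 passed). With SET siRNA 1 rose and 3 fell in WT-labelled cells, against 30.8% and 24.0% of all entries. In KO-labelled cells 1 rose and 2 fell, against 19.8% and 17.9%, so the counts there lie near the shares of all entries. The gene that rose in WT-labelled cells was CCL3L3, the copy of CCL3 that entered the test through the group where it was high. CXCL14 fell from 5.20 ± 0.670 to 0.740 ± 0.218 and from 4.59 ± 0.0480 to 0.847 ± 0.243 (-1.83 and -1.60, limma adjusted p = 3.36e-06 and 6.26e-05). CCL26, an eosinophil attractant, fell in both lines (-0.84 and -0.50, limma adjusted p = 0.000117 and 0.0114), and CX3CL1 differed by -0.05 in WT-labelled and 0.38 in KO-labelled cells (limma adjusted p = 0.590 and 0.0132). Under control siRNA CX3CL1 and the monocyte attractant CCL2 were lower in KO-labelled cells (-1.32 and -1.14, limma adjusted p = 6.17e-06 and 3.63e-05), and no chemokine of the list was higher. With SET siRNA CCL2 fell from 15.8 to 10.8 in WT-labelled cells (-0.51, limma adjusted p = 0.00121). The chemokines thus did not all move one way with SET siRNA. CXCL14 and CCL26 fell in both lines and CCL2 in WT-labelled cells, while CCL20, IL8 and CXCL3 rose in both lines. CCL3 rose from 1.23 to 7.37 in WT-labelled cells and did not pass in KO-labelled cells (mean FPKM 0.390 and 0.284).

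Of 22 other secreted factors of senescent cells 14 were tested. With SET siRNA 7 rose and 2 fell in WT-labelled cells, against 30.8% and 24.0% of all entries. In KO-labelled cells 6 rose and 2 fell, against 19.8% and 17.9%. The matrix metalloprotease MMP3 rose from 152 ± 16.1 to 608 ± 67.8 and from 131 ± 9.12 to 223 ± 1.67 (1.99 and 0.76, limma adjusted p = 6.26e-07 and 0.000884). The interstitial collagenase MMP1 rose from 2.96 to 6.60 and from 0.396 to 2.79 (0.94 and 1.44, limma adjusted p = 8.98e-05 and 6.38e-05), and the EGF receptor ligand AREG rose by 1.16 and 0.73 (1.28e-05 and 0.00129). Under control siRNA 11 were lower and 1 higher in KO-labelled cells, against 22.2% and 25.7% of all entries. MMP1 differed by -1.50 and IGFBP7, which binds insulin-like growth factors, by -1.32 (limma adjusted p = 1.85e-05 and 1.95e-06). These lists and the members were measured in the same libraries, and nothing is called particular to any of them.

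**Figure D4:**
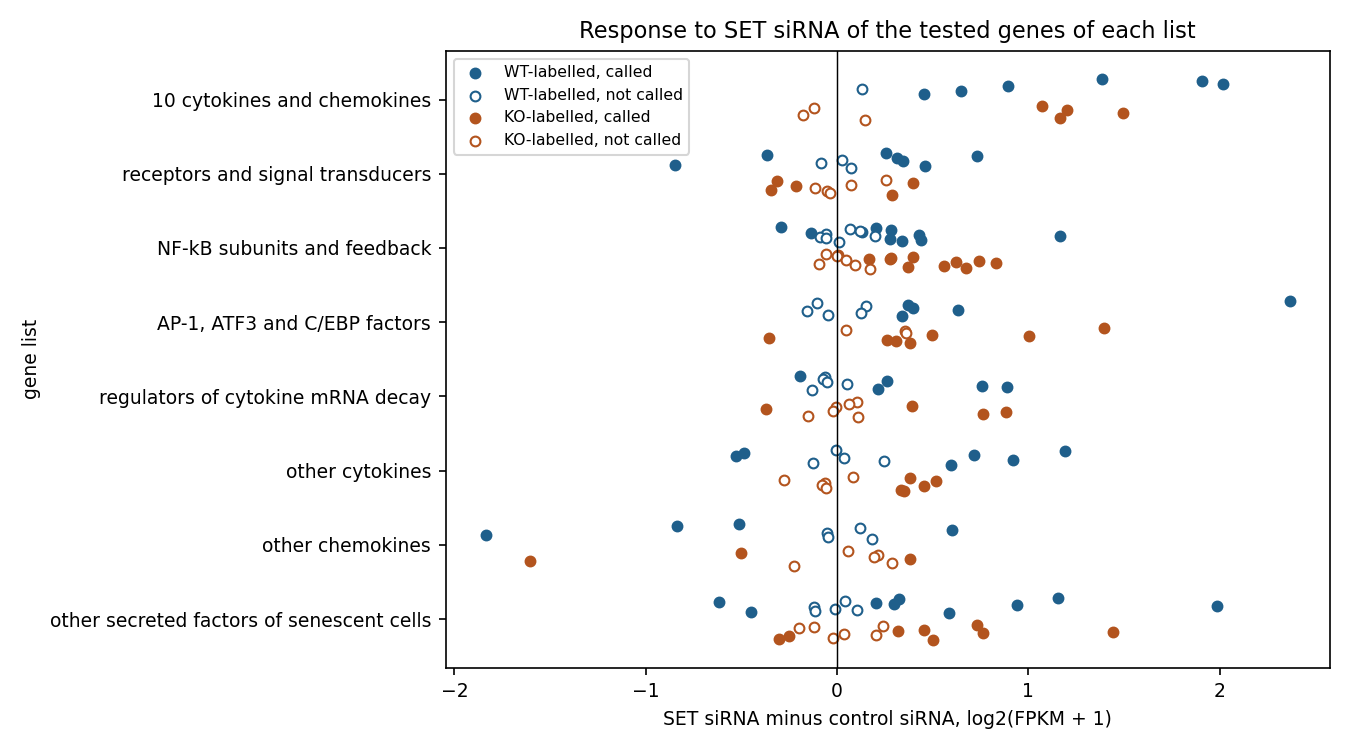
Differences in log2(FPKM + 1) between SET siRNA and control siRNA (x axis) for each tested gene of the members and of 7 other lists (rows), in WT-labelled (blue) and KO-labelled (orange) cells. Filled points passed limma's adjusted p below 0.05. The called members all lie above 0, whereas the other chemokines run from CXCL14 at -1.83 to CCL3L3, the copy of CCL3, at 0.60.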

How the data were processed

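Trizol was used for RNA extraction and a TruSeq kit for the libraries, per the labels' protocols. The tools named are bcl2fastq 1.8.4, TopHat2 2.0.4 and Cufflinks 2.0.2 (submitters' processing notes). The authors deposited FPKM per gene with an interval and a status, per the file headers. The sources used here do not give the genome build, annotation or interval level. File coordinates are printed counted from 1: their spans equal RefSeq lengths for 18.1% of 20044 shared symbols if starts count from 0 and for 0.938% if from 1.

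Entries at FPKM 1 or above in 2 or more libraries were tested (14813, with 10780 left out). limma 3.58.1 in R 4.3.3 (lmFit, contrasts.fit, eBayes with trend) fitted log2(FPKM + 1) in 4 groups of all 10 libraries, and Benjamini-Hochberg adjusted p below 0.05 over all tested entries was called. The fit was also run on simulated data with independent normal noise. Only genes with a mean log2(FPKM + 1) above 2 were changed there, so that run does not cover members below that level. No count test was used because FPKM are not counts. Within a line, same-numbered control and SET siRNA libraries did not clearly go together, and pairing across the lines was not examined.

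The members and gene lists were chosen with earlier results of these data known. Named are all 10 members, up to 3 called genes per list and comparison by size of change, neighbours within 250 kb of CSF2, CCL3 and the CXCL region, and the 2 entries most like each tested member. A few genes under this rule are not reported here. Alternatives were other pseudocounts, filters, scalings and fits, a replicate block, and leaving out each library. Pseudocount 0.01, and 0.1 without a filter, were chosen after seeing the data. Promoters are from RefSeq, and transcripts from GENCODE 29.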

Additional observations from a re-analysis of the deposited data

Results flagged for a closer look

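For 4 members limma's interaction term found that the WT-labelled and KO-labelled lines differed in their response to SET siRNA (effect in WT-labelled minus effect in KO-labelled cells). CCL3 differed by 2.03 (limma adjusted p = 8.92e-05), with all 3 WT-labelled SET siRNA libraries above all 3 controls and overlapping values in KO-labelled cells. CCL3 reached FPKM 1 only in WT-labelled libraries, and its KO-labelled values of 0.157 to 0.411 had intervals down to about 0. CSF2 differed by 0.82 (adjusted p = 0.0148 by limma), a value that turned negative with smaller pseudocounts. LIF differed by 0.31 (limma adjusted p = 0.0356), a small difference in the most abundant member that was not called without 8 of the 10 libraries taken out 1 at a time or with pseudocount 0.1 and no filter. CXCL3 differed by -0.60 (limma adjusted p = 0.0287), with the larger response in KO-labelled cells, and was not called with array weights or without any 1 of 4 libraries (limma adjusted p = 0.0533 to 0.0972).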

How the results depend on the processing

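Precision is limited by 2 libraries per KO-labelled group and by wide intervals for the low members, and an effect on log2(FPKM + 1) can differ from a ratio of folds. For SET siRNA in WT-labelled cells, all 147 alternative values of the 7 tested members kept their direction and side of the threshold. The interaction of CSF2 reversed to -0.93 with pseudocount 0.1, with or without the filter (limma adjusted p = 0.229 and 0.326), and to -2.73 with 0.01 (adjusted p = 0.173), and 2 members were called for the interaction with pseudocount 0.1 and no filter. Leaving out 1 library reversed some values that were never called. For SET siRNA in KO-labelled cells CCL3 ranged from -0.27 to 0.021, the CCL20 interaction from -0.030 to 0.65, CCL20 between lines under control siRNA from -0.53 to 0.15, and IL8 between lines under SET siRNA from -0.16 to 0.21. Fitted on only the libraries compared, 3631 entries were called for SET siRNA in KO-labelled cells, against 5571. CCL3 was not tested in that fit because all its KO-labelled values lay below FPKM 1. Likewise CXCL3 was not tested between lines under control siRNA. With 1 library left out, that count of 5571 ranged from 3442 to 5816, entries called for the interaction ranged from 1136 to 4587 (2831 with all libraries), and members called for it from 1 (without KO-labelled SET siRNA replicate 2) to 3, against 4 with all libraries. The interaction count of 4587 came without KO-labelled control replicate 1 and that of 1136 without KO-labelled SET siRNA replicate 1; a lone remaining library was assumed to vary like the other groups. The causes were not tested. Same-numbered control and SET siRNA libraries of a line showed no clear pairing in WT-labelled cells (correlations of deviations from group means -0.083, -0.026 and 0.073). With 2 libraries per KO-labelled group the deviations mirror each other, so the value there (0.0032) cannot show pairing. Same-numbered libraries of different lines were not compared. With the replicate block 1825 entries were called higher and 1575 lower for the interaction, against 1557 and 1274 in the main fit. With the replicate block IL8 passed for the interaction (-0.52, limma adjusted p = 0.0214) and CCL20 between lines under SET siRNA (-0.62, adjusted p = 0.0396), and no other member's call changed.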

Other observations

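The entries whose log2(FPKM + 1) was most like that of each tested member across the 10 libraries were read as a description, since the libraries share 4 groups and many genes follow the same groups. CCL3 was most like PPM1D (Pearson r = 0.998) and WDR63 (0.998), and LIF most like LAPTM5 (0.999) and CES2 (0.996). PPM1D stood at 23.4 ± 0.963 and 47.4 ± 1.88 in WT-labelled cells with control and SET siRNA (SD, n = 3 each) and at 18.3 ± 0.702 and 17.9 ± 1.03 in KO-labelled cells (SD, n = 2 each). CSF2 was most like TRIM35 (0.996) and IST1 (0.996), and IL11 most like CCDC148 (0.985) and OSBPL3 (0.983). CXCL3 was most like PDRG1 (0.990) and RASSF1 (0.990), IL8 like NSUN2 (0.979) and UTP20 (0.976), and CCL20 like C11orf46 (0.970) and MORN2 (0.968). PDRG1 stood at 51.0 and 71.8 in WT-labelled cells and at 49.6 and 88.0 in KO-labelled cells, so that, as for CXCL3, its highest level was in the KO-labelled SET siRNA libraries.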
